A study of Gallus gallus with 3 samples.

Results

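Levels of 7 microRNAs (miRNAs) that are best known from white blood cells, gga-miR-146a, gga-miR-146b, gga-miR-146c, gga-miR-223, gga-miR-142-3p, gga-miR-142-5p and gga-miR-155, were examined in the leg muscle of chicken embryos at 14 days of age. They were chosen by name, as miRNAs tied to white blood cells, among the 542 chicken miRNAs on the arrays. Earlier results of these data were known when the choice was made. Probes for the star (passenger) strands were left out of the set. The dwarf recessive White Rock embryos came from a strain that carries a deleted form of GHR, the gene of the growth hormone receptor, and grows less. The normal recessive White Rock embryos came from a strain of the same breed without that deletion. Both strains were meat-type, the embryos were female, the age was the same, and skin and bone had been taken off the muscle. Each of 3 arrays was hybridized with RNA of 1 dwarf pool and 1 normal pool, and every pool combined 3 embryos. Cy5 was the dye of the dwarf pool on arrays 1 and 3, and Cy3 was its dye on array 2, where the dyes were swapped. The strains are separate lines, so the GHR deletion and any other difference between the lines cannot be told apart. The number of arrays, n = 3, limits the precision of every value.

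As background, miRNAs are short RNAs that pair with messenger RNAs mainly through their seed, the stretch near the 5′ end, and lower the output of those messengers. In human and mouse cells miR-146a is switched on by NF-kB after Toll-like receptor signaling and lowers the adaptors IRAK1 and TRAF6, so that it damps the same pathway. miR-223 is a miRNA of the myeloid lineage, where it restrains granulocyte output. miR-142 is made in nearly all blood cell lineages, and both arms of its hairpin give mature miRNAs. miR-155 is cut from the noncoding transcript BIC, found first in chicken B-cell lymphomas, and acts in activated lymphocytes and macrophages. Muscle fibers are not the usual source of any of these, and whole muscle also holds blood, vessel and connective tissue cells. In such bulk samples fewer cells of a type and less RNA per cell cannot be told apart.

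The sequences that the arrays target are given to show which members could be mistaken for each other. Each is written 5′ to 3′ with the seed, bases 2 to 8, in capitals.
gga-miR-146a: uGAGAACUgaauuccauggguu
gga-miR-146b: uGAGAACUgaauuccauaggcg
gga-miR-146c: uGAGAACUgaauuccauggacug
gga-miR-223: uGUCAGUUugucaaauacccc
gga-miR-142-3p: uGUAGUGUuuccuacuuuaugg
gga-miR-142-5p: cCCAUAAAguagaaagcacuac
gga-miR-155: uUAAUGCUaaucgugauagggg

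The 3 miR-146 members share 1 seed, GAGAACU, which no other miRNA on the arrays has. Each of the other 4 members has a seed of its own, shared with 0 other miRNAs of the arrays. Counted from the 5′ end, gga-miR-146a and gga-miR-146b are identical over the first 17 bases and differ by G18A, U21C and U22G. gga-miR-146a and gga-miR-146c are identical over the first 19 bases and differ by G20A and U21C, and gga-miR-146c is 1 base longer, with 23 bases against 22. gga-miR-146b and gga-miR-146c differ by A18G, G20A and G22U. All differences among the 3 thus lie in the 3′ part, outside the seed. How much signal the 3 probes share through cross-hybridization was not tested, and no probe's level is set against that of another probe here. The strain ratios and patterns of the 3 are compared below under the same limit.

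All 7 members were matched by name to miRNA genes in the GRCg7b gene table of RefSeq, from which only names and neighbors were taken. MIR146A lies in the noncoding gene LOC121106732, with ATP10B and PTTG2 as the nearest coding genes. MIR146B overlaps the coding gene LOC121113369 beside SLF2, and MIR146C-1 overlaps DDRGK1. The 3 miR-146 members thus lie in separate genes. MIR223 lies in the noncoding gene LOC107053194 between ARHGAP20B and HSF3. The 2 arms of miR-142 come from 1 hairpin, MIR142, which overlaps the coding gene LOC107054776 between TSPOAP1 and SUPT4H1. MIR155 lies in MIR155HG, the BIC gene.

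Before the members, the arrays as a whole are described by the pools' signals, taken as the mean of the 6 spots of a miRNA minus the median empty spot of that channel. The median signal over the 127 miRNAs tested below was 301 to 642 in dwarf pools and 182 to 2600.1 in normal pools, with the normal pool of array 2 the dimmest and that of array 3 the brightest. Raw signals therefore compare badly between channels, and strain ratios were taken after normalization within each array. The muscle label was checked against muscle miRNAs. The summed signal of 5 muscle miRNAs, among them gga-miR-206, ran from 8369.5 to 27190.3 in dwarf pools and from 19972 to 43853 in normal pools. The arrays name miR-1, the other main muscle miRNA, gga-miR-1a, and its signals were 5839.7, 14029 and 19498 in dwarf pools, against 15787, 9304 and 25983 in normal pools. Muscle miRNAs were thus present in every pool.

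Detection was examined first. A miRNA was called detected in a pool when its signal exceeded 32, the number used as a limit in the study. The study describes normalized signals, while the signals here were not normalized, so the number may not mean the same level. In the dimmest channel 90 of the 542 miRNAs exceeded this limit, and in the brightest 142 did. By this limit 1 of the 7 members, gga-miR-146c, was detected in every pool, against 15.7% of all 542 miRNAs, and 2 of the 7, gga-miR-142-3p and gga-miR-142-5p, were detected in no pool, against 72.5% of all miRNAs. The other 4 members were detected in 1 to 5 of the 6 pools.

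gga-miR-146c, the only member over the limit in all 6 pools, had signals of 2048, 1309.8 and 1540.1 in dwarf pools, in the order of arrays 1, 2 and 3, against 1144, 255 and 3295 in the normal pools. All 36 of its spots exceeded the 95th percentile of the empty spots of their channel. gga-miR-146a, the member known as the NF-kB feedback miRNA of human cells, had signals of 858, 298 and 477 in dwarf pools, against 306, 15.5 and 1394 in normal pools. It was under the limit only in the normal pool of array 2, the dimmest channel, and there too its 6 spots exceeded the 95th percentile of the empty spots. In array 3 the raw signals of both miRNAs were lower in the dwarf pool than in the normal pool.

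gga-miR-146b, which shares the miR-146 seed, had signals of 43.8, 51.8 and 56.6 in dwarf pools, against 46.9, 13.4 and 322 in normal pools. It was detected in 3 dwarf and 2 normal pools, and again the normal pool of array 2 fell below the limit. In the normal pool of array 1 only 3 of its 6 spots exceeded their 95th percentile.

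gga-miR-223, the myeloid miRNA, had signals of 24.6, 96.1 and 123 in dwarf pools, against 100.2, 21.3 and 414 in normal pools. It was detected in 2 dwarf and 2 normal pools, and 33 of its 36 spots exceeded the 95th percentile of the empty spots. The pools under the limit were the dwarf pool of array 1 and the normal pool of array 2, which were both labeled with Cy5. These channels also had the lowest median signals over the tested miRNAs, 301 and 182. The other Cy5 channel, the dwarf pool of array 3, was over the limit.

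The 2 arms of miR-142, the miRNA that nearly all blood lineages share, were not well above background in any pool. gga-miR-142-3p had signals of -11.6, 8.19 and -9.18 in dwarf pools, against -27.9, -1.29 and -30.7 in normal pools. A negative signal means that the probe was dimmer than the median empty spot. gga-miR-142-5p had signals of -7.31, 6.91 and -4.48 in dwarf pools, against -16.1, -1.01 and -14.9 in normal pools. The pools of both strains overlapped around 0 for both arms. Of their 36 spots each, 1 and 0 exceeded the 95th percentile of the empty spots. Many probes shared this level, since the median of all 542 miRNA probes lay between -7.19 and 7.96 of the empty spots in dwarf pools and between -15.0 and 0.896 in normal pools.

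gga-miR-155, the miRNA of activated lymphocytes, passed the limit in 1 pool only. Its signals were -10.3, 36.0 and -3.82 in dwarf pools, against -21.0, 19.1 and -2.10 in normal pools. The value over the limit, in the dwarf pool of array 2, came from 1 of its 6 spots, which read 273 before background subtraction while the other 5 read at most 121. The same spot was also the brightest in the normal channel of array 2, where it read 147 and the other 5 read at most 37.2. Without the brightest spot of each channel the signals on array 2 were 9.70 in the dwarf pool and 0.602 in the normal pool. No pool was over the limit when the median of the 6 spots was used in place of their mean. gga-miR-155 was thus not detectable on these arrays apart from single bright spots.

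**Figure D1:**
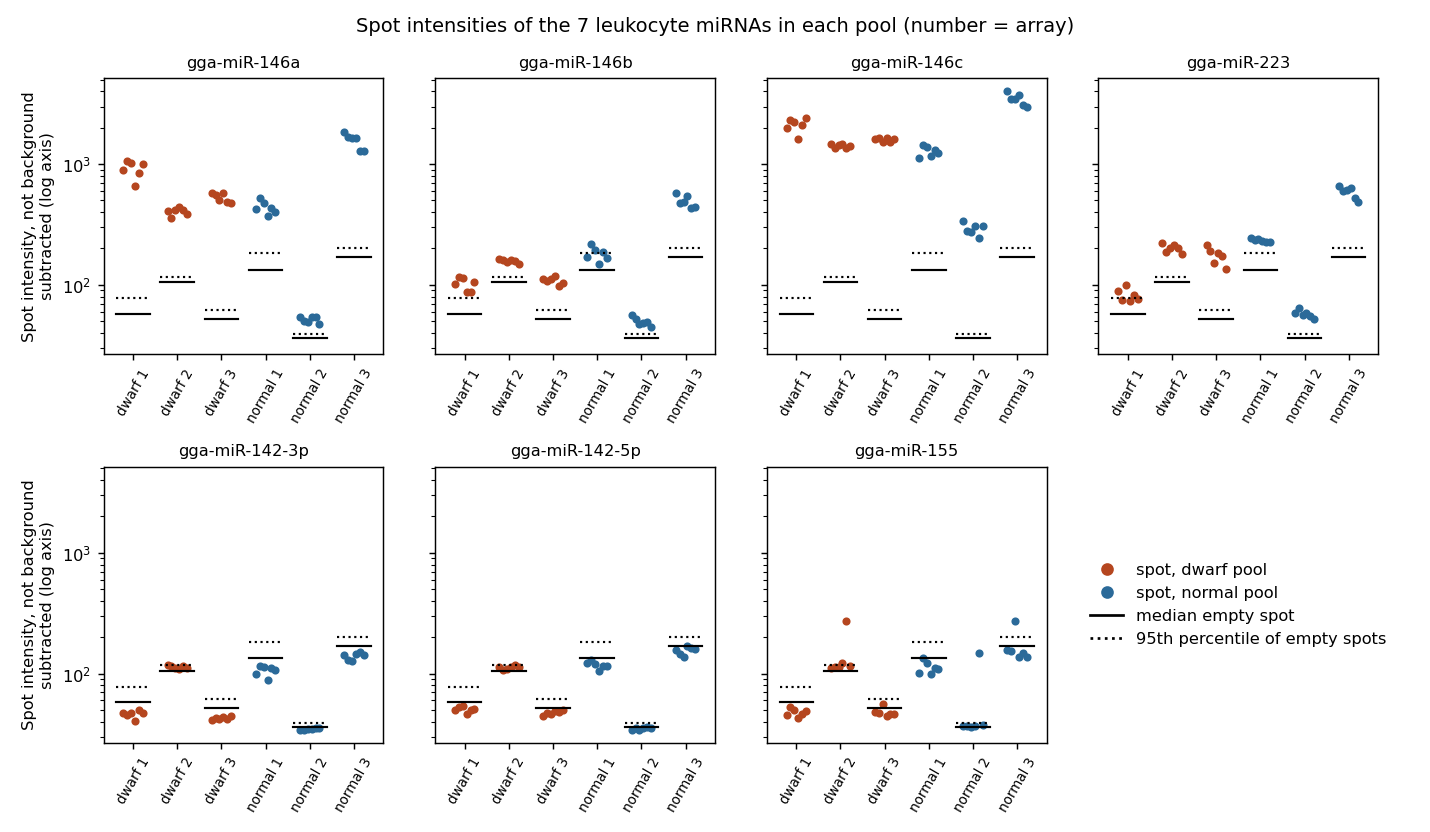
Intensity of each of the 6 spots of the 7 members in the dwarf pools and the normal pools of arrays 1, 2 and 3, without background subtraction, on a log axis. The solid line is the median and the dotted line the 95th percentile of the empty spots of that channel. The spots of gga-miR-146c lie above the dotted line in all 6 pools, those of gga-miR-142-3p and gga-miR-142-5p lie near or below the solid line with 1 spot above the dotted line, and gga-miR-155 has single bright spots on arrays 2 and 3.

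The strain ratio, dwarf over normal on the log2 scale, was then tested with limma for each miRNA whose mean signal over the 6 pools exceeded 32. Of the 542 miRNAs 127 passed this filter, and of the 7 members 4 did, gga-miR-146a, gga-miR-146b, gga-miR-146c and gga-miR-223. gga-miR-142-3p, gga-miR-142-5p and gga-miR-155 were not tested. A miRNA could pass through 1 strain alone, but all 4 members had at least 2 pools of each strain over the limit. Before the logarithm an offset of 50 was added, which pulls ratios toward 0 where signals are low. This holds for the dim gga-miR-146b and gga-miR-223, and for gga-miR-146a on array 2, where its normal pool had a signal of 15.5. With an offset of 16 the mean ratio was 1.49 for gga-miR-146a, against 1.23. It was 0.0954 for gga-miR-146b, against 0.0448, and 0.0396 for gga-miR-223, against 0.00852.

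None of the 4 tested members passed an adjusted p of 0.05, as none of the 127 tested miRNAs did (0%). At an unadjusted p under 0.05 limma called 1 of the 4, gga-miR-146c, against 14 of the 127 miRNAs (11%). gga-miR-146a and gga-miR-146c, 2 of the 4 members, had a ratio above 0 on all 3 arrays, against 17 of 127 (13.4%). None of the 4 had a ratio below 0 on all 3 arrays, against 24 of 127 (18.9%). Only gga-miR-146c, 1 of the 4, had all 3 dwarf pools above all 3 normal pools in normalized signal, against 6 of 127 (4.72%). With 4 members these shares carry little precision.

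gga-miR-146c had normalized signals of 3805, 1463 and 1399 in dwarf pools (arrays 1, 2 and 3), against 1128, 725 and 1087 in the normal pools. Normalized signals are those after loess and Aquantile scaling of the channels, with the offset kept in. The pools of the strains did not overlap, and the dwarf pool of array 1 was far above the rest. The means were 2223 ± 1371 in dwarf pools and 980.1 ± 222 in normal pools (SD, n = 3 each). The log2 ratios were 1.75, 1.01 and 0.36, averaging 1.04 (SE 0.31, 95% interval 0.16 to 1.93), or 2.06-fold. The limma p was 0.0309 before adjustment and 0.324 after it, so the difference was not called. Its p was the 12th smallest of the 127, and without array 1 the mean ratio was 0.69. In the log2 ratios deposited by the authors it had 2.16, 0.60 and 0.68, so the order of arrays 2 and 3 depends on the processing.

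gga-miR-146a showed a similar picture with a wider spread. Its normalized signals were 1541, 418 and 496 in dwarf pools, against 323, 173 and 447 in normal pools. The dwarf pool was higher on each array, but the pools of the strains overlapped, as the normal pool of array 3 exceeded the dwarf pool of array 2. The means were 819 ± 627 in dwarf pools and 315 ± 137 in normal pools (SD, n = 3 each). The log2 ratios were 2.25, 1.27 and 0.15, and their mean was 1.23 (SE 0.45, 95% interval -0.06 to 2.51, limma adjusted p 0.362). Among the 127 miRNAs this was the 6th highest ratio and that of gga-miR-146c the 7th highest. The SD of the ratio between arrays, 1.05, was the 8th highest of the 127, where the median was 0.33. The spots of 1 array differed far less, with an SD of 0.09 to 0.16. On array 3 the 6 spots gave -0.01 to 0.31, so the ratio there was within the spot spread of 0. On array 2, where the normal pool was under the limit, the offset pulls the ratio toward 0. In the authors' table the ratios were 2.67, 2.15 and 0.42. Without array 1 the mean ratio was 0.71.

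For gga-miR-146b the mean ratio was close to 0, in a dim probe whose ratio the offset pulls toward 0. It had normalized signals of 156, 135 and 128 in dwarf pools, against 112, 136 and 161 in normal pools. The pools overlapped, and the means were 139.5 ± 14.7 in dwarf pools and 136 ± 24.9 in normal pools (SD, n = 3 each). Its log2 ratios were 0.48, -0.01 and -0.34, with a mean of 0.04 (SE 0.21, 95% interval -0.54 to 0.63, limma adjusted p 0.973), and the mean was below 0 with median centring and with no normalization.

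gga-miR-223 had normalized signals of 133, 198 and 190.2 in dwarf pools, against 153, 179.7 and 179 in normal pools. These pools overlapped as well, with means of 174 ± 35.3 in dwarf pools and 171 ± 15.1 in normal pools (SD, n = 3 each). The log2 ratios were -0.20, 0.14 and 0.09, with a mean of 0.01 (SE 0.14, 95% interval -0.38 to 0.40, limma adjusted p 0.993), and the sign turned with median centring, with no normalization and in the authors' table.

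**Figure D2:**
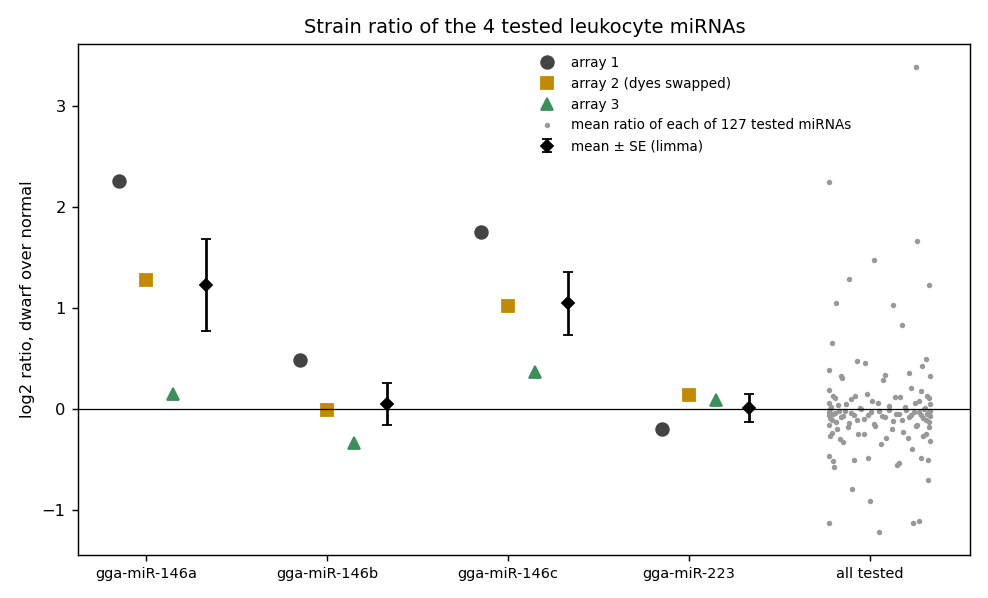
Log2 ratio, dwarf over normal, of the 4 tested members on each array (symbols), with the limma mean and its SE (black diamonds), beside the mean ratios of all 127 tested miRNAs (small gray points). gga-miR-146a and gga-miR-146c lie above 0 on all 3 arrays and, with this processing, fall in the order of arrays 1, 2 and 3, while gga-miR-146b and gga-miR-223 lie around 0.

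The miR-146 members were then compared among themselves by the difference of their ratios within each array, for 3 pairs. The difference of gga-miR-146a minus gga-miR-146b was 1.77, 1.29 and 0.49 on the 3 arrays, or 1.18 ± 0.65 (mean and SD, n = 3). It was above 0 on 3 of 3 arrays, and the exact sign-flip test (two-sided) gave p = 0.25 and an adjusted p of 0.375. The difference of gga-miR-146b minus gga-miR-146c was -1.27, -1.02 and -0.70, with a mean of -0.999 ± 0.29 (SD, n = 3), below 0 on 3 of 3 arrays, and had the same exact p of 0.25 and adjusted p of 0.375. The smallest p that 3 arrays allow is 0.25, so neither pair could pass. The difference of gga-miR-146a minus gga-miR-146c was 0.50, 0.26 and -0.21, with a mean of 0.18 ± 0.36 (SD, n = 3) and an exact p of 0.5, its sign was not the same on all arrays, and without array 1 the mean was 0.02. gga-miR-146a and gga-miR-146c, which differ by 2 substitutions, had ratios closer to each other than to that of gga-miR-146b on each array, and the ratio of gga-miR-146b was the lowest of the 3 throughout. Cross-hybridization between these probes was not tested. The ratios of gga-miR-146a and gga-miR-146c, and their patterns over the pools, may therefore not be separate measurements. With an offset of 16, which pulls dim probes less, the differences were 1.39 for gga-miR-146a minus gga-miR-146b and -1.01 for gga-miR-146b minus gga-miR-146c.

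**Figure D3:**
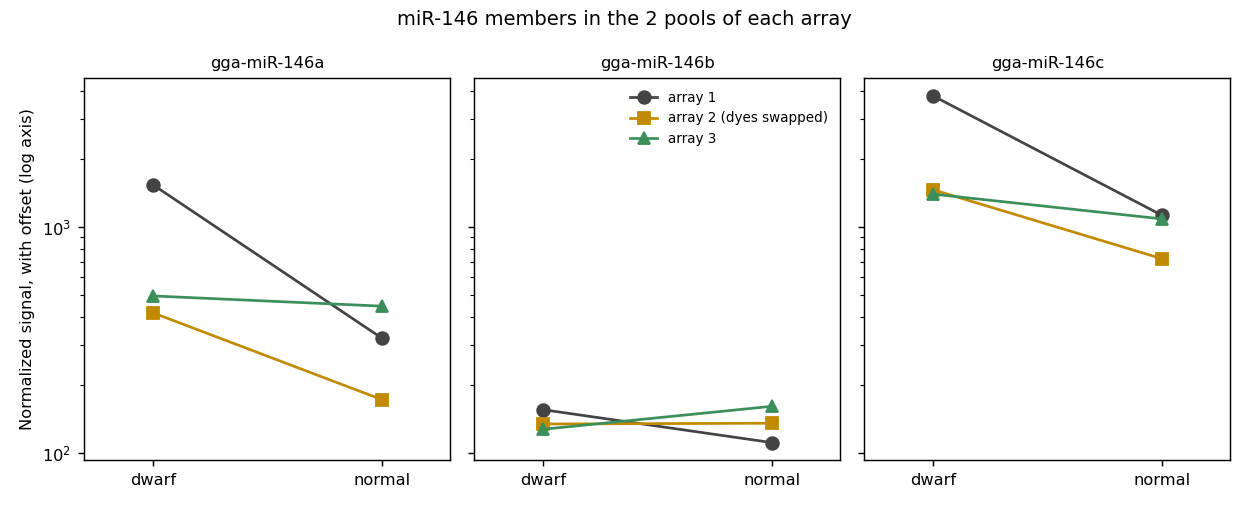
Normalized signal of gga-miR-146a, gga-miR-146b and gga-miR-146c in the dwarf pool (left) and the normal pool (right) of each array, on a log axis, with lines that join the pools of 1 array. The lines of gga-miR-146a and gga-miR-146c slope down to the normal pool on all 3 arrays, most steeply on array 1, and those of gga-miR-146b cross.

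To see which other miRNAs varied like the members, normalized log2 signals were correlated over the 6 pools. These values describe 6 pools on 3 arrays that share hybridizations, and the median correlation over all pairs of tested miRNAs was 0.00264. The neighbors named are the 3 highest for each member, so that median does not tell how high such picked values run. The signals also hold the strain ratios, so the likeness is not separate information from them. gga-miR-146a was most like gga-miR-146c, with r = 0.97, then gga-miR-205b with 0.93 and gga-miR-200b with 0.92. gga-miR-146c was, after gga-miR-146a, most like gga-miR-429 with 0.96 and gga-miR-200a with 0.96. The neighbors of both, apart from each other, are thus miRNAs of the epithelial list described below. In the normal pool of array 2 gga-miR-205b, gga-miR-200b, gga-miR-429 and gga-miR-200a had signals of 1.74, 10.9, -1.285 and -1.165, where the offset largely sets the normalized value. There gga-miR-146a was under the limit too. For gga-miR-146a and gga-miR-146c the dwarf pool of array 1 was far above the rest, so these correlations lean on few pools. gga-miR-146b was most like gga-miR-18b with 0.83, gga-let-7i with 0.75 and gga-miR-454 with 0.75, and its correlation was 0.47 with gga-miR-146a and 0.37 with gga-miR-146c. gga-miR-223 was most like gga-miR-460a with 0.89, gga-miR-15a with 0.88 and gga-miR-126, a miRNA of vessel endothelium and platelets, with 0.87. Against the miR-146 members gga-miR-223 had correlations of -0.60, -0.12 and -0.63 with gga-miR-146a, gga-miR-146b and gga-miR-146c.

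Other miRNAs tied to blood and immune cells or to NF-kB and Toll-like receptor signaling were examined as a list. Of 15 such miRNAs 13 were among the probes and 9 were tested, and 0 passed an adjusted p of 0.05 in limma, with 0 at an unadjusted p under 0.05 as well. Their ratios were above 0 for 4 and below 0 for 5, with a median of -0.11. Over all 127 tested miRNAs 47 ratios were above 0 and 80 below, with a median of -0.05. gga-miR-21, which is raised in many activated or growing cells, had a ratio of 0.49 (SE 0.28, limma adjusted p 0.596). gga-miR-181a and gga-miR-181b, which act in lymphocyte development in mice, had ratios of -0.51 (SE 0.25) and -0.49 (SE 0.20). gga-miR-147, which like miR-146 follows Toll-like receptor signaling in mouse macrophages, was not well above background, nor were gga-miR-9, gga-miR-29b and gga-miR-29c. The 4 tested members had a median ratio of 0.54, with 1.12, 0.58 and 0.12 on arrays 1, 2 and 3, and this median combines the pair near 1 with the pair near 0.

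Marker lists of other cells that muscle tissue can hold are given beside these ratios. Summed signals of the lists are raw, and raw signals compare badly between channels. The epithelial list had 7 members, of which 6 were tested. All 6 had a ratio above 0, against 47 of all 127 tested miRNAs. Limma gave 3 of the 6 an unadjusted p under 0.05, against 14 of 127 (11%), and 0 passed after adjustment. The list had a median of 1.56, with medians of 2.10, 2.32 and 0.54 on arrays 1, 2 and 3. Its summed signal ran from 28208 to 50581 in dwarf pools and from 279 to 19574 in normal pools, without overlap, but without gga-miR-203 the pools overlapped, with 7287, 3586 and 2474 in dwarf pools of arrays 1, 2 and 3, against 3719, 21.3 and 5553 in normal pools. gga-miR-203, a skin epithelium miRNA, had the highest ratio of all, 3.38 (SE 0.84, limma adjusted p 0.324), and gga-miR-183 was not well above background. Like gga-miR-146a and gga-miR-146c, all 6 had their lowest ratio on array 3, though in the authors' table that of gga-miR-146c was lowest on array 2. Over all 127 tested miRNAs the median ratio was lowest on array 3 as well, with -0.03, 0.004 and -0.13 on arrays 1, 2 and 3. The ratio of gga-miR-146b was lowest there too, at -0.34. How many of the 127 had such an order of arrays was not counted, so the shared order tells little. The highest ratio was on array 1, as for gga-miR-146a and gga-miR-146c, in 3 of the 6 (gga-miR-200a, gga-miR-429 and gga-miR-205b) and on array 2 in the other 3. In the normal pool of array 2 those named had signals of -1.165, -1.285 and 1.74, at background. There the offset limits the ratio, so their order of arrays 1 and 2 tells little. In that pool gga-miR-200b, gga-miR-203 and gga-miR-205a had signals of 10.9, 257 and 6.17. The part of epithelial RNA in the ratios of gga-miR-146a and gga-miR-146c was not tested.

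The erythroid list had 3 miRNAs among the probes, 2 of them tested, with a median of 1.15 and medians of 0.78, 1.96 and 0.72 on arrays 1, 2 and 3. gga-miR-451 and gga-miR-2188, miRNAs of red blood cells, had ratios of 1.28 (SE 0.37) and 1.03 (SE 0.27), and limma gave an adjusted p of 0.324 for both. The third, gga-miR-144, which shares a transcript with miR-451, was not well above background in any pool. The summed erythroid signal, which is raw, overlapped between the strains, from 1310.2 to 6401 in dwarf pools and from 605 to 4849 in normal pools. Within arrays 1, 2 and 3 the ratios were 0.76, 2.25 and 0.85 for gga-miR-451 and 0.79, 1.68 and 0.60 for gga-miR-2188. Both were above 0 on all 3 arrays, against 17 of the 127 tested miRNAs (13.4%). Their limma p before adjustment was 0.0268 and 0.0202, where 14 of 127 (11%) were under 0.05. The part of blood content in the ratios of the leukocyte miRNAs was not tested.

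The defining blood miRNA of the set, miR-142, was at background in both arms in the same pools. Whether a probe at background, such as those of miR-142 and gga-miR-144, reflects little RNA or a weak probe was not tested. gga-miR-126, the 1 tested endothelial miRNA, had a ratio of 0.13 (SE 0.12), and gga-miR-126* was not tested. The 5 muscle miRNAs had a median of -0.29, with -1.08, 0.43 and -0.33 on arrays 1, 2 and 3. Of these 1 lay above 0 and 4 below, beside 47 above and 80 below of all 127 tested miRNAs. gga-miR-1a, which was added after its probe name was seen, had a ratio of -0.08 (SE 0.26), and the median with it was -0.18. The 1 tested cartilage miRNA, gga-miR-140*, had a ratio of -1.13 (SE 1.22), with -3.48, 2.13 and -2.05 on the arrays, while gga-miR-140 was not tested. The members' summed signal overlapped between the strains, from 1806 to 2974 in dwarf pools and from 324 to 5425 in normal pools. This sum is raw, and its lowest and highest values came from the dimmest and the brightest channel, the normal pools of arrays 2 and 3. The overlap therefore tells little about the strains.

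**Figure D4:**
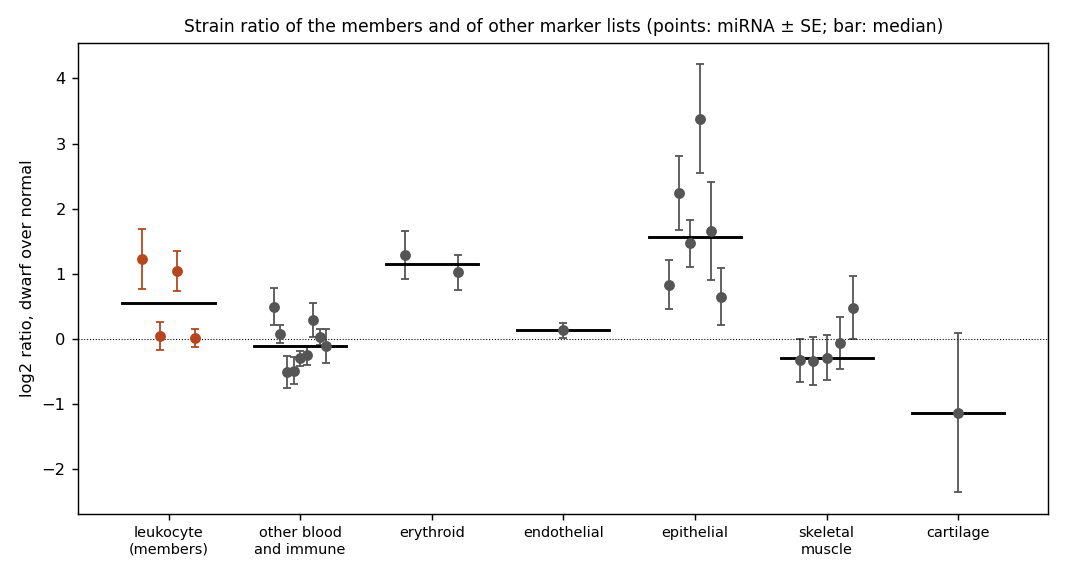
Log2 ratio, dwarf over normal, of each tested miRNA of the leukocyte members and 6 other lists, as the limma estimate with its SE, with a bar at the median of each list. The members split into a pair above 1 and a pair at about 0, the epithelial and erythroid miRNAs lie above 0, and the other blood and immune miRNAs lie on both sides of 0.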

How the data were processed

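The deposited scanner files hold linear spot intensities of 2 channels (Cy3, Cy5), with no background subtracted and none given per spot. The authors also deposited log2 ratios made by background subtraction and LOWESS. Sample titles name this ratio with the normal strain on top, but against the scanner values it followed dwarf over normal (r of 0.965, 0.860 and 0.912 over 127 miRNAs). Its array medians were 0.04, 0.03 and -0.13, and how it was centered is not given in the sources used here.

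Foregrounds were corrected with normexp (offset 50), since background per spot was not given, then loess was run per array with control spots at weight 0, and the 6 spots were averaged. The sign was turned on array 2. limma 3.58.1 in R 4.3.3 (lmFit, eBayes, 2 residual and 1.82 prior degrees of freedom) was run on the 127 miRNAs with a mean signal over 32, with Benjamini-Hochberg adjustment, after it was tested on simulated data. Nothing in the labels gives other replication than separate pools, so p-values measure the spread between arrays.

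Named miRNAs were the 7 members, the 3 tested miRNAs most correlated with each, star strands of their hairpins, and defining miRNAs of the lists. Others named from the lists were chosen with their values seen. The members and lists were chosen with earlier results of these data known. Alternatives were another offset, plain subtraction with a floor, median centring, no normalization, loess on tested miRNAs, the median of spots, the authors' table, no filter or one at 100, a dye coefficient, an intensity trend, separate channels, the methods' t-test, other detection limits and leaving out each array.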

Additional observations from a re-analysis of the deposited data

Results flagged for a closer look

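gga-miR-146c*, the star strand of the gga-miR-146c hairpin, was outside the set because star strands were left out. It was not tested, as its mean signal lay under the limit, but it gave a signal over 32 in 2 pools. Its target sequence on the arrays is aGUCCAUGguauucaguucucu, with bases 2 to 8 in capitals. Its signals were 28.1, 39.9 and 26.0 in dwarf pools (arrays 1, 2 and 3), against 3.85, 3.20 and 69.6 in the normal pools. The highest, 69.6, was in the normal pool of array 3, the brightest channel. After normalization the log2 ratios were 0.61, 0.19 and 0.16 on arrays 1, 2 and 3, above 0 on each array, with no test. Among the 127 tested miRNAs, which do not include it, 17 (13.4%) were above 0 on all 3 arrays. In the normal pools of arrays 1 and 2 it was near background, where the offset limits the ratio, so the order of arrays tells little. gga-miR-146b* was under the limit in every pool.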

How the results depend on the processing

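Over 16 alternatives each the ratio stayed above 0 for gga-miR-146a (0.69 to 1.76) and gga-miR-146c (0.612 to 1.38). Of these, no filter, the filter at 100, the intensity trend and the methods' t-test leave the ratio itself unchanged. No tested member passed an adjusted p of 0.05 under any alternative, separate channels without the replicate block included. None passed the methods' t-test at its unadjusted threshold of 0.01 either. These settings numbered 17 in all, and with no filter all 7 members were tested. gga-miR-146b was not tested with the filter at 100. Leaving out array 1 lowered gga-miR-146a to 0.712 and gga-miR-146c to 0.689, and leaving out array 3 raised them to 1.76 and 1.38. The ratio of gga-miR-146b was -0.235 with median centring and -0.475 with no normalization, and ran from -0.174 to 0.236 when each array was left out. That of gga-miR-223 was -0.262, -0.503 and, in the authors' table, -0.108, and ran from -0.0572 to 0.113. With median centring and no normalization the median of all tested miRNAs was -0.262 and -0.503. Relative to it gga-miR-146a lay at 1.19 in both, gga-miR-146c at 1.11 and 1.12, gga-miR-146b at 0.027 and 0.028. The ratio of gga-miR-223 equaled that median, so it lay at 0. Centring shifts all ratios of an array alike, so both settings had to give the same relative values apart from rounding. The cause of the shift of the median was not tested. Members detected in every pool numbered 2 at a limit of 16 and 3 above the 95th percentile of empty spots, against 1. No miRNA of the 127 passed in most alternatives, while 2 passed with median centring and 3 with a dye coefficient. An unadjusted p under 0.05 gave 3 to 21 of 127 miRNAs, 13 of 102 with the filter at 100 and 31 of 542 with no filter, and the methods' t-test gave 1 at its threshold. At that p the members counted 0 to 2, against 1, and 0 without array 1, without array 2, with plain subtraction, median centring, no normalization, separate channels or the methods' t-test. Their median ratio was 0.0684 with no normalization and 0.309 with median centring, against 0.544. Pair differences kept their sign, with -1.15 to -0.863 for gga-miR-146b minus gga-miR-146c. No paired analysis beyond the ratio within an array was possible because each array holds 1 pool of each strain. Signal over background limited gga-miR-142-3p and gga-miR-142-5p, under the limit in 6 of 6 pools, gga-miR-155 in 5, gga-miR-223 in 2, and gga-miR-146a and gga-miR-146b in 1 each.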
